A study of Mus musculus with 13 samples.

Results

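The 32 genes described here encode proteins of ribosome biogenesis and of the nucleolus, together with growth-linked enzymes and a coactivator that are often studied with them. They were taken from a list of gene symbols drawn up with earlier results of these data known, with no threshold on a measured value, and each symbol matched 1 RefSeq identifier among the 24072 in the count files. All 32 also passed the filter on low counts, which left 12722 genes. The RNA came from common lymphoid progenitors, cells of the bone marrow that give rise to lymphocytes, in wild-type C57BL/6 mice. The cells had been separated by flow cytometry for 2 surface proteins, Ly6D and Gfra2. Cells with neither protein (Ly6D-Gfra2-) gave 6 libraries, those with Ly6D alone (Ly6D+Gfra2-) gave 4, and those with both (Ly6D+Gfra2+) gave 3. The labels name no treatment and state neither the age of the mice nor whether each replicate is an animal of its own. A p-value here therefore speaks of the scatter among libraries, which may be technical.

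Ribosomes are made in the nucleolus. RNA polymerase I copies the ribosomal RNA genes there, small nucleolar RNA-protein particles (snoRNPs) guide chemical marks onto the transcript, and assembly factors fold and trim it into the small and the large subunit. The transcription factor Myc, which binds DNA with its partner Max at the E-box CACGTG, is known for raising many of these genes in growing cells, and dividing progenitors need a steady supply of new ribosomes.

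Library totals ranged from 6892728 to 23705975 counts, so that 3 counts in a library corresponded to between 0.133 and 0.389 CPM (counts per 1000000 counts of the scaled library). The number of genes detected ranged from 10837 in Ly6D+Gfra2+ replicate 5 to 13969 in the library labelled Ly6D-Gfra2- replicate 3. That latter library held 213 CPM of Ly6d, within the 158 to 506 CPM of the Ly6D-positive libraries and far above the 0.622 to 8.29 CPM of the other 5 libraries of its label. Its 299 CPM of Siglech, a receptor of plasmacytoid dendritic cells, and its 222 CPM of Rag1, a recombinase of lymphocyte development, were also at Ly6D+Gfra2- levels. Gfra2 itself was at 286, 514 and 364 CPM in Ly6D+Gfra2+ replicates 4, 5 and 6, and no other library exceeded 14.7 CPM. Each library name starts with P or T, a prefix whose meaning is not stated. All Ly6D+Gfra2+ libraries have T, so the prefix was a term of every comparison, and fitted fold changes can differ in sign from differences of group means.

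The progenitor genes Il7r (310 to 1117 CPM), Flt3 (760 to 1258 CPM), Kit (93.0 to 295 CPM) and Dntt (2905 to 4475 CPM) were detected in all 13 libraries. So were Rag1 (37.6 to 1382 CPM), Ptprc (339 to 640 CPM) and Cd27 (264 to 601 CPM). Detection alone does not fix the cell type, as Mpo and Siglech, markers of other cells, were also detected in all 13. The summed markers of some other cell types differed between groups, while those of others, such as T and NK cells, overlapped across all groups. The summed granulocyte and monocyte markers (13 genes) lay between 643 and 1430 CPM in Ly6D-Gfra2-. They lay between 427 and 585 CPM in Ly6D+Gfra2-. The range was 198 to 465 CPM in Ly6D+Gfra2+. Those of plasmacytoid dendritic cells (Siglech, Bst2, Tcf4, Irf8, Ccr9 and Ly6c2) summed to 765 to 2000 CPM, 1592 to 2041 CPM and 535 to 807 CPM in the same order, and those of the B lineage (7 genes) to 24.9 to 144 CPM, 144 to 203 CPM and 1303 to 1360 CPM. Ly6c2 is in both of the first 2 lists. Erythroid and megakaryocyte markers summed to 80.0 to 471 CPM, 32.7 to 102 CPM and 21.6 to 103 CPM, and T and NK markers to 122 to 166 CPM, 97.8 to 209 CPM and 71.2 to 220 CPM. Mature B and plasma cell markers summed to 53.5 to 140 CPM, 88.4 to 142 CPM and 27.7 to 70.9 CPM, and stromal and endothelial markers to 188 to 250 CPM, 219 to 331 CPM and 198 to 275 CPM. The stromal and endothelial sums rested mostly on Pecam1, at 158.8 to 299.5 CPM over the 13 libraries. Every other gene of that list was at 0 in 6 or more libraries. Single genes were also large in other lists, with Mpo of granulocytes and monocytes at up to 1124 CPM. Xbp1 of mature B and plasma cells was at up to 140 CPM. Pf4 of megakaryocytes, Ms4a1 of mature B cells and Pdgfra of stroma were at 0 in all 13 libraries, while other genes of these lists were detected, with Gp9 at up to 14 CPM, Jchain at up to 18.5 CPM and Col1a2 at up to 59.6 CPM. The part of these other transcripts in the results below was not tested, and in bulk RNA fewer cells of a type and less RNA per cell cannot be told apart.

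All 32 genes were expressed in each group. Their summed level was 4840 ± 671 CPM (SD, n = 6) in Ly6D-Gfra2-, 4345 ± 740 CPM (n = 4) in Ly6D+Gfra2- and 5787 ± 982 CPM (n = 3) in Ly6D+Gfra2+. Single libraries spanned 4355 to 5794 CPM, 3567 to 4983 CPM and 4698 to 6605 CPM, so the sums of the 3 groups overlapped. Within prefix T, which all Ly6D+Gfra2+ libraries have, they did not. There the sums were 4355 to 4411 CPM, 3567 to 3859 CPM and 4698 to 6605 CPM in the same order. Each of these ranges rests on few libraries, and sets that small often separate by chance. With library size alone, Ly6D+Gfra2+ replicate 4 (4421 CPM) lay below every Ly6D-Gfra2- library of prefix T (4756, 4862 and 4938 CPM). With both prefixes pooled, Ly6D+Gfra2- had the lowest mean for 16 of the 32 genes and Ly6D+Gfra2+ the highest for 18. Ncl, which encodes nucleolin, gave the most counts of the 32 in every library, between 29.1% and 38.8% of their sum.

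**Figure D1:**
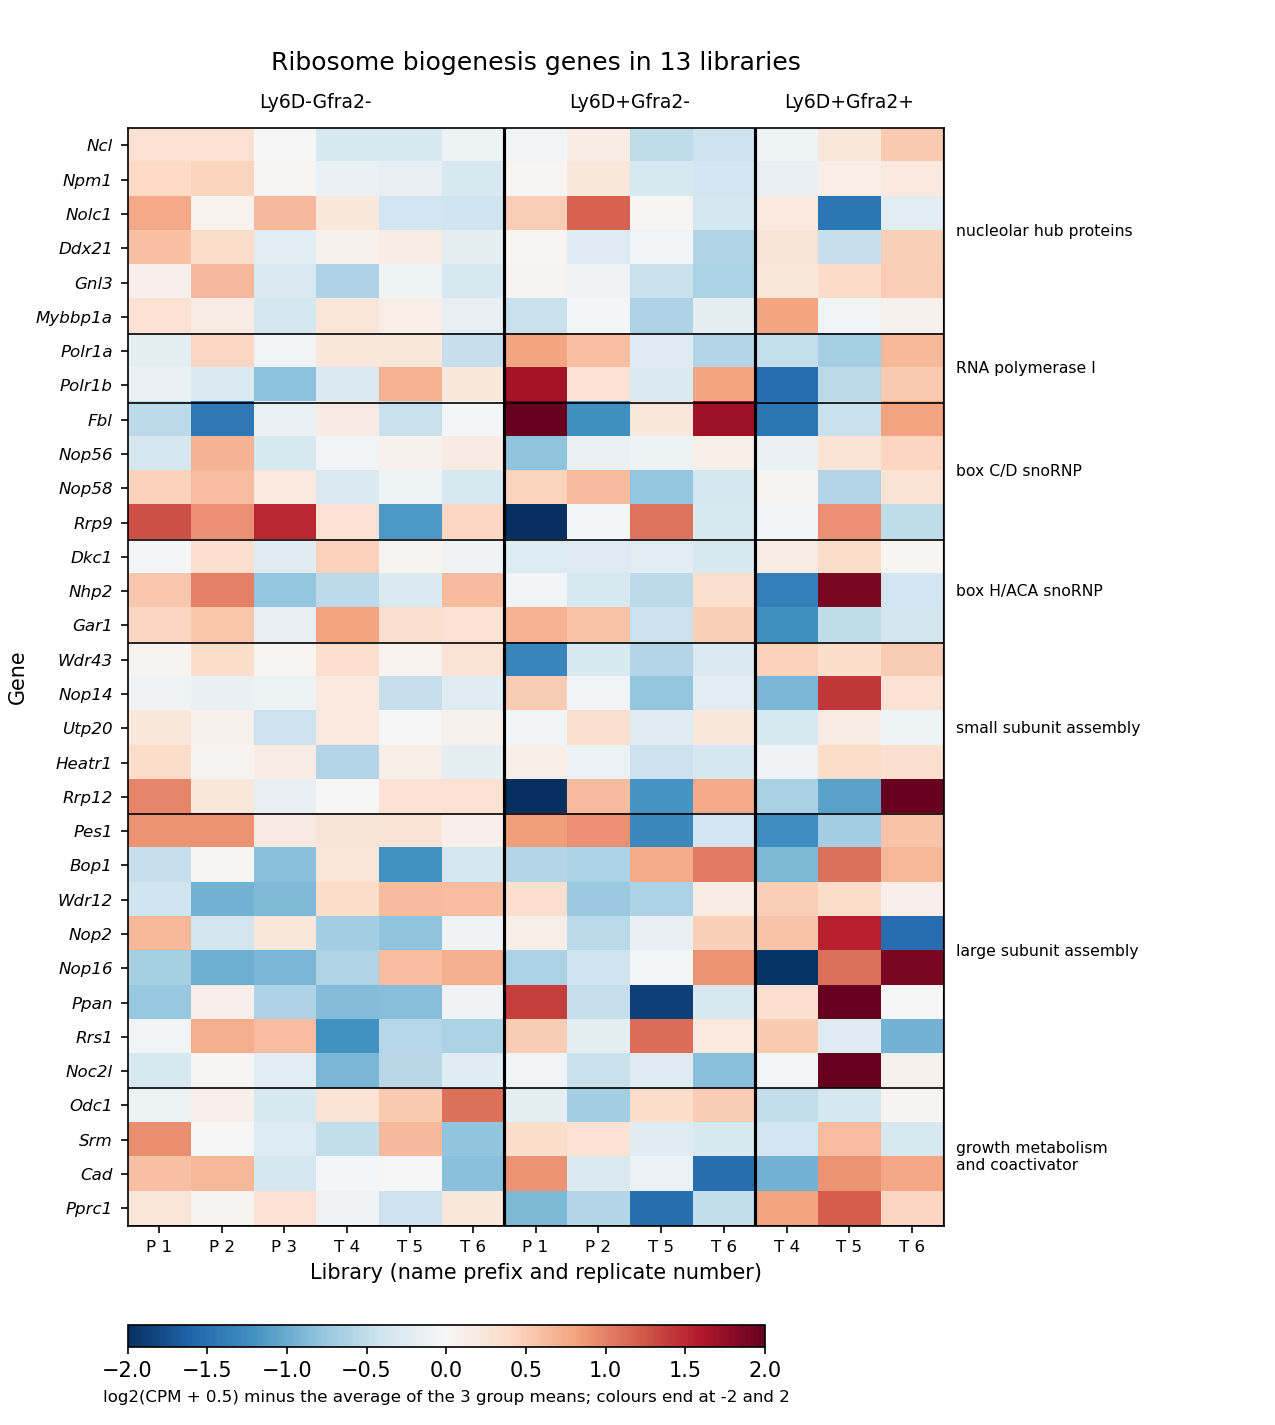
Level of each of the 32 genes (rows, by role) in each of the 13 libraries (columns, by group, name prefix and replicate number), as log2(CPM + 0.5) minus the average of the 3 group means; red is above and blue below that average, and colours end at -2 and 2. Wdr43 and Pprc1 are blue in all 4 Ly6D+Gfra2- libraries and red in all 3 Ly6D+Gfra2+ libraries, while Rrp12, Rrp9 and Fbl change colour within groups.

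Between Ly6D+Gfra2- and Ly6D-Gfra2-, the question was which of the 32 genes differ with Ly6D among cells without Gfra2. None passed in edgeR at an adjusted p under 0.05 (percent of all 12722 genes called: 0%), while 3 had an unadjusted p under 0.05, against 4.71% of all genes (2.66% higher and 2.04% lower). Fbl was higher, and Wdr43 and Pprc1 were lower. DESeq2 called none of the 32 either, and 0.157% of all genes (0.055% higher). The median log2 fold change of the 32 was -0.14, with 11 positive values (34.4%), beside -0.01 and 49.6% positive over all genes tested. With replicate 3 of Ly6D-Gfra2- left out the median was -0.21 with 9 positive values, and it was -0.21 within prefix T and -0.16 within prefix P. With replicate 5 of Ly6D-Gfra2- left out it was -0.0739 with 12 positive values.

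Between Ly6D+Gfra2+ and Ly6D+Gfra2-, which asks what differs with Gfra2 among Ly6D-positive cells, the balance lay the other way. The Ly6D+Gfra2- libraries are on opposite sides of this comparison and the one before, so these balances are not independent. A single gene, Pprc1, passed in edgeR and was higher in Ly6D+Gfra2+ (percent of all genes called: 0.409%, with 0.204% higher). At an unadjusted p under 0.05 there were 8 of the 32 (25%), of which 7 were higher (Ncl, Gnl3, Mybbp1a, Wdr43, Ppan, Noc2l and Pprc1) and Gar1 lower, against 13.2% of all genes (6.21% higher and 6.97% lower). The median log2 fold change was 0.42, with 24 positive values (75%), beside 0.03 and 51.1% over all genes. Within prefix T it was 0.49, with 23 positive values and none of the 32 passing, and without Ly6D+Gfra2+ replicate 5 it was 0.31, with 21 positive values and again none passing. Without replicate 6 it was 0.31 with 20 positive values. DESeq2 called 5 of the 32, all higher (Pprc1, Noc2l, Ncl, Wdr43 and Gnl3), and 4.28% of all genes (1.73% higher).

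Between Ly6D+Gfra2+ and Ly6D-Gfra2-, which shares both groups with the comparisons above and is not independent of them, none of the 32 passed in edgeR (percent of all genes called: 1.39%). An unadjusted p under 0.05 was found for 7, of which 5 were higher (Ncl, Gnl3, Ppan, Noc2l and Pprc1) and Gar1 and Odc1 lower, against 15.4% of all genes (7.63% higher and 7.72% lower), and DESeq2 called 2 (6.25%), Noc2l and Ppan, both higher, beside 6.2% of all genes (2.66% higher). The median was 0.27, with 25 positive values (78.1%), beside 0.01 and 50.6% over all genes, and 0.24 within prefix T. It was 0.13 with 19 positive values without Ly6D+Gfra2+ replicate 6, and 0.13 with limma voom. Scaling by library size alone moved the median of all genes to -0.15 against Ly6D+Gfra2- and to -0.25 against Ly6D-Gfra2-. The medians of the 32 then were 0.24 and 0.01, which is 0.38 and 0.25 above all genes, with 21 and 16 positive values.

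**Figure D2:**
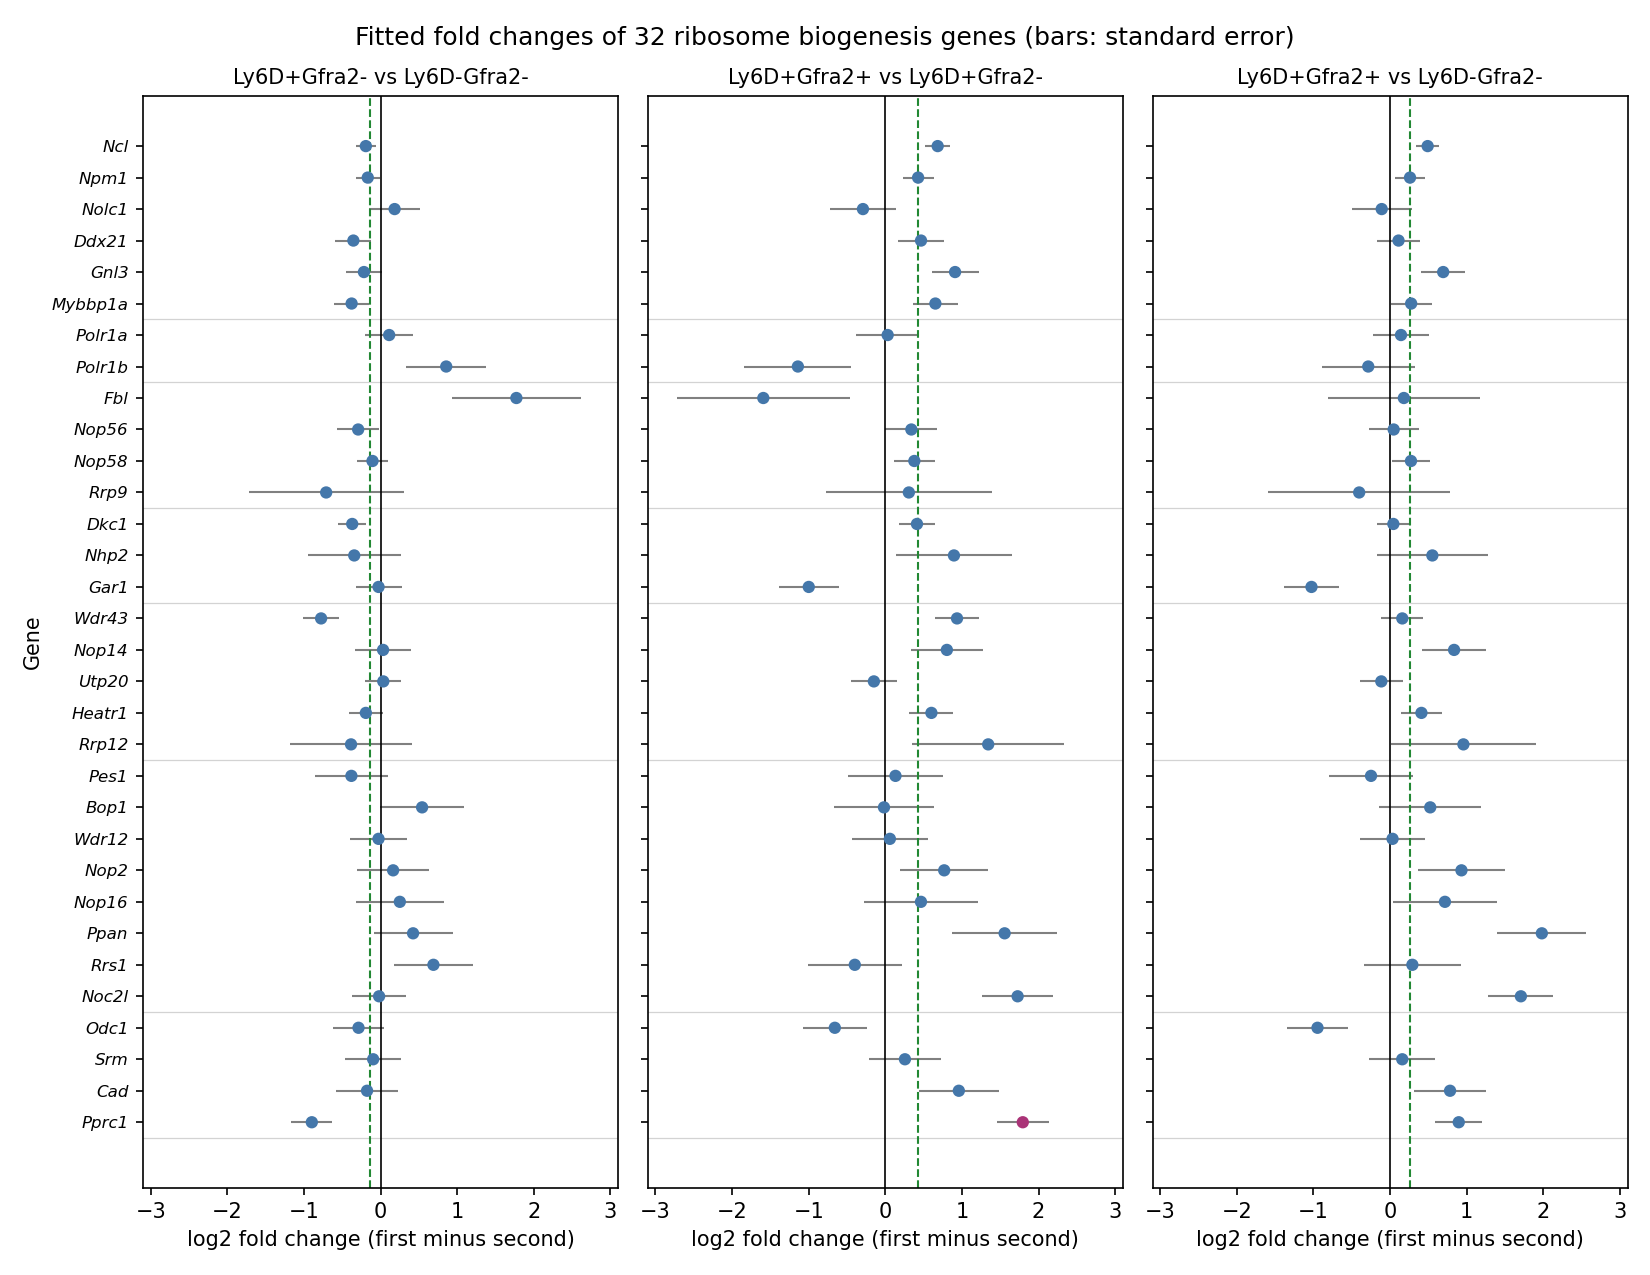
Fitted log2 fold changes of the 32 genes (points, grouped by role) with their standard errors (bars) in the 3 comparisons; the dashed green line is the median of the 32 and the purple point the gene with an adjusted p under 0.05. The median is -0.14 in the left panel, 0.42 in the middle and 0.27 at right, and Pprc1 alone is purple, at 1.79 in the middle panel.

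Complete separation of the groups was also counted. No library of Ly6D+Gfra2- overlapped one of Ly6D-Gfra2- for Wdr43 and Pprc1, both lower (percent of all genes without overlap: 1.53%, with 0.951% lower). Ly6D+Gfra2+ lay wholly above Ly6D+Gfra2- for 5 genes (Gnl3, Dkc1, Wdr43, Noc2l and Pprc1), and wholly below for none, against 9.71% of all genes (4% higher and 5.71% lower). Against Ly6D-Gfra2- it lay wholly above for Wdr43 and Pprc1 and below for Gar1 (all genes: 10.2%, with 4.03% higher and 6.19% lower). On this scale Wdr43 and Pprc1 were the only members of the 32 whose 3 groups did not overlap at all, with the order Ly6D+Gfra2-, Ly6D-Gfra2-, Ly6D+Gfra2+ from low to high. Over all 12722 genes tested, 10 had 3 groups without any overlap (0.0786%), and 2 had them in this order (0.0157%), namely this pair. The order counted is the one that the pair itself showed, so the count in this order is a description and not a test. With library size alone the separation in this order held for Pprc1, while Wdr43 in Ly6D+Gfra2+ (153.4 to 196.5 CPM) overlapped Ly6D-Gfra2- (146.4 to 193.5 CPM).

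Pprc1 (NM_001081214, chr19:46056526-46072909 in GRCm38.p6) encodes a growth-regulated coactivator of the PGC-1 family, which acts with the factor NRF1 on nuclear genes for mitochondria. It stood at 58.2, 72.7, 38.2 and 77.4 CPM in Ly6D+Gfra2- replicates 1, 2, 5 and 6. In Ly6D+Gfra2+ replicates 4, 5 and 6 it stood at 190.0, 252.1 and 147.4 CPM, and in Ly6D-Gfra2- between 82.1 and 135.4 CPM with a median of 119.9 CPM. Every Ly6D+Gfra2+ library was above every other library, and every Ly6D+Gfra2- library below. Between Ly6D+Gfra2+ and Ly6D+Gfra2- the log2 fold change was 1.79 (SE 0.34; edgeR adjusted p = 0.0336). Its direction held in 24 of 24 alternative settings, from 1.56 to 2.12, but the call held in only 11. The adjusted p was 0.252 within prefix T and 0.0507 with library size alone. Leaving out 1 library ended the call for Ly6D-Gfra2- replicates 1 (0.0624), 2 (0.0531), 4 (0.0697), 5 (0.0609) and 6 (0.0528), Ly6D+Gfra2- replicates 2 (0.0514) and 5 (0.126), and Ly6D+Gfra2+ replicate 5 (0.0634). The other differences did not pass, at -0.90 (SE 0.27; adjusted p = 0.807) for Ly6D+Gfra2- and 0.90 (SE 0.31; adjusted p = 0.177) for Ly6D+Gfra2+, each against Ly6D-Gfra2-.

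Wdr43 (NM_175639, chr17:71616178-71659031) encodes a subunit of the complex that binds nascent pre-ribosomal RNA at the start of small subunit assembly. Its levels were 56.4, 113.3, 93.2 and 115.4 CPM in Ly6D+Gfra2- replicates 1, 2, 5 and 6 and 193.2, 179.2 and 199.9 CPM in Ly6D+Gfra2+ replicates 4, 5 and 6. In Ly6D-Gfra2- they ran from 145.0 to 178.9 CPM with a median of 159.4 CPM. The lowest Ly6D+Gfra2+ library was less than 1 CPM above the highest Ly6D-Gfra2- library, and Ly6D+Gfra2- was clearly set apart. In the fit, Ly6D+Gfra2- differed from Ly6D-Gfra2- by -0.78 (SE 0.23; adjusted p = 0.807) and Ly6D+Gfra2+ from Ly6D+Gfra2- by 0.94 (SE 0.29; adjusted p = 0.174), neither past the threshold. Ly6D+Gfra2+ and Ly6D-Gfra2- differed by 0.16 (SE 0.27), or by -0.0947 with library size alone.

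**Figure D3:**
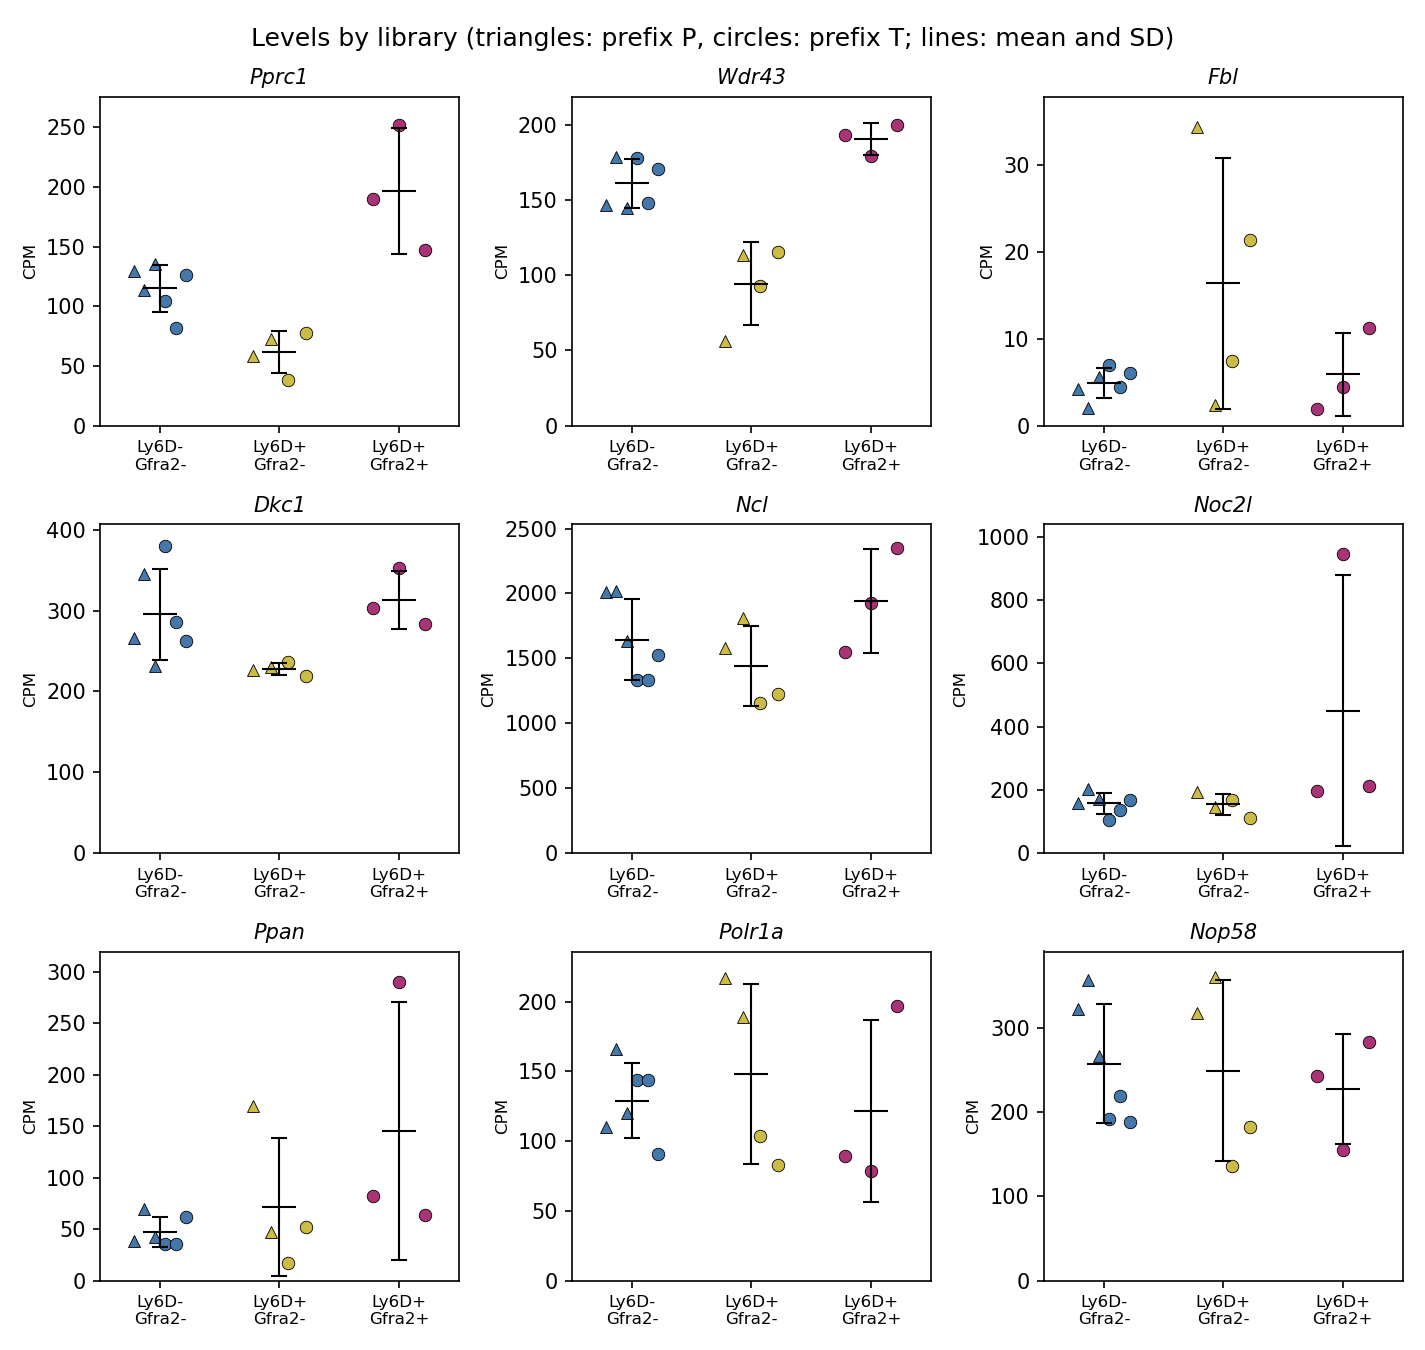
CPM of the 9 genes described library by library (panels), by group; triangles are libraries of prefix P, circles those of prefix T, and lines give the group mean and SD. Pprc1 and Wdr43 show 3 separate ranges with Ly6D+Gfra2- lowest (with library size alone the upper 2 ranges of Wdr43 overlap), and Noc2l and Ppan show a single high Ly6D+Gfra2+ library (replicate 5, at 946 and 290.5 CPM).

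Promoter sequence is shown for genes with the Myc-Max E-box, because that pair is known to bind these letters, and for Pprc1, which was added after its values were seen. RefSeq promoter windows of 300 bases (250 before to 50 after the annotated start, GRCm38.p6) were found for 26 of the 32 genes. Npm1, Fbl, Rrp12, Bop1, Rrs1 and Srm were not in the table. The E-box CACGTG is its own reverse complement. Counting a gene if any of its windows held it, it was found for 5 of the 26 genes (19.2%: Mybbp1a, Nop2, Pes1, Utp20 and Wdr43). By the same count it was found for 11.9% of the 10048 genes tested that have a window. Counted by window instead of by gene, it was in 7.15% of all 32851 windows. The 4 with the smallest p-values follow with their E-box in capitals, then Pprc1, all on the plus strand.
Wdr43, chr17:71615965-71616264: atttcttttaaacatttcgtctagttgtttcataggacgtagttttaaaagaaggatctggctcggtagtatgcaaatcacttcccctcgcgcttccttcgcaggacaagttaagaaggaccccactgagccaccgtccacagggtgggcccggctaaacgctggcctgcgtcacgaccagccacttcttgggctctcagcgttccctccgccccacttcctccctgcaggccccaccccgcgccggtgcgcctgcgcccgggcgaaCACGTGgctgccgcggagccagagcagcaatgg
Mybbp1a, chr11:72441077-72441376: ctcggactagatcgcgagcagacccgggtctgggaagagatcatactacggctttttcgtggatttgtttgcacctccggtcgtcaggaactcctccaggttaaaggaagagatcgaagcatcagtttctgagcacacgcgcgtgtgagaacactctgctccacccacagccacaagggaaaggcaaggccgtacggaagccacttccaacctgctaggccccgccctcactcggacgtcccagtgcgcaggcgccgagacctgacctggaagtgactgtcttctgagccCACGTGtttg
Nop2, chr6:125131633-125131932: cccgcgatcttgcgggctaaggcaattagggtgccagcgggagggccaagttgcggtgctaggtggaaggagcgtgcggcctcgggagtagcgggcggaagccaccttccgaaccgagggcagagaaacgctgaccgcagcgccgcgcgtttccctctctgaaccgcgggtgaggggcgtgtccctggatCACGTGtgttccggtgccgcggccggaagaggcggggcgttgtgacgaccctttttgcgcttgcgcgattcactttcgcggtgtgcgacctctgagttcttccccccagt
Pes1, chr11:3963725-3964024: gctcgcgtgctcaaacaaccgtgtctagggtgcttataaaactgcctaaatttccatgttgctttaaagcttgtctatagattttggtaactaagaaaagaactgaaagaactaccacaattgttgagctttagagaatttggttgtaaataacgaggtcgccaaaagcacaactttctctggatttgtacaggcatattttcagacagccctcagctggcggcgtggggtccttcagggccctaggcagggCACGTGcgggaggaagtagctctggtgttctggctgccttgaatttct
Pprc1, chr19:46056289-46056588: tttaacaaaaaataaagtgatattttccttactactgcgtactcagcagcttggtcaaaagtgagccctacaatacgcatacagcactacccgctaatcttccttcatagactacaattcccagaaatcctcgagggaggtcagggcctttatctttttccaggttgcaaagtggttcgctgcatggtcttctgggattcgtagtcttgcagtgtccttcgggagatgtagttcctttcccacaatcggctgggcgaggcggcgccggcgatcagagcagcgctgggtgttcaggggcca
Positions were counted from the start that each window was built on. For Wdr43 and Pprc1 that start is not the first base of the gene span given above. The first base of the E-box was at 18 in Wdr43, 41 in Mybbp1a and 3 in Pes1, downstream of the start, and at -60 in Nop2, upstream of it. The Pprc1 window holds no CACGTG, which says only that these letters are not in it. Searched on both strands and counted by gene, the GC box GGGCGG was found for 18 of the 26 genes (69.2%, against 67.1% of genes tested with a window). The ETS motif CCGGAAGT was found for 5 (19.2%: Gar1, Heatr1, Nhp2, Noc2l and Ppan, against 9.27%). The canonical palindromic NRF1 motif was found for none of the 26 (2.37% of genes tested with a window). A match is a description of the sequence and not evidence of binding.

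The 6 nucleolar hub proteins had a median log2 fold change of -0.20 for Ly6D+Gfra2- against Ly6D-Gfra2- (1 positive), 0.56 for Ly6D+Gfra2+ against Ly6D+Gfra2- (5 positive) and 0.27 for Ly6D+Gfra2+ against Ly6D-Gfra2- (5 positive), with none passing. Ncl (NM_010880, chr1:86344719-86359455) binds pre-ribosomal RNA and is among the most abundant nucleolar proteins. It measured 1577, 1814, 1157 and 1223 CPM in Ly6D+Gfra2- replicates 1, 2, 5 and 6 and 1547, 1925 and 2353 CPM in Ly6D+Gfra2+ replicates 4, 5 and 6. The Ly6D-Gfra2- libraries ran from 1330 to 2016 CPM with a median of 1579 CPM, so all groups overlapped. In Ly6D+Gfra2- and in Ly6D-Gfra2-, every library of prefix P was higher than every one of prefix T. Within prefix T the groups did not overlap. Their ranges there were 1157 to 1223 CPM (Ly6D+Gfra2-, n = 2), 1330 to 1525 CPM (Ly6D-Gfra2-, n = 3) and 1547 to 2353 CPM (Ly6D+Gfra2+, n = 3). Sets this small often separate by chance, and the share of all genes separated within prefix T was not counted. The fit with the prefix term gave 0.68 (SE 0.17; adjusted p = 0.0814) for Ly6D+Gfra2+ against Ly6D+Gfra2-, and 0.43 (adjusted p = 0.323) without that term. DESeq2 called it (adjusted p = 0.0154).

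Among the other hub genes, Npm1, the chaperone nucleophosmin, was at 333 ± 72.9 CPM (n = 6) in Ly6D-Gfra2-, 296 ± 59.3 CPM (n = 4) in Ly6D+Gfra2- and 331 ± 41.6 CPM (n = 3) in Ly6D+Gfra2+. The fit with the prefix term gave 0.43 (SE 0.20; adjusted p = 0.379) for Ly6D+Gfra2+ against Ly6D+Gfra2-, positive in 24 of 24 settings. Within prefix T the 283.5 to 361.9 CPM of the former lay above the 240.3 to 253.2 CPM of the latter. The share of all genes separated in that way was not counted. Gnl3, which encodes the GTP-binding protein nucleostemin, was at 134.8 to 163.1 CPM in Ly6D+Gfra2+ and 74.3 to 120.5 CPM in Ly6D+Gfra2- without overlap, a difference of 0.91 (SE 0.31; adjusted p = 0.21). Mybbp1a, a Myb-binding nucleolar protein, differed by 0.65 (SE 0.29; adjusted p = 0.347) between the same groups. Its gene overlaps Spns2, which ran at 184 to 291 CPM in Ly6D+Gfra2+ and at most 136 CPM elsewhere. The genes share 133 bases, and reads there cannot be assigned to one of them, as the strand setting of the counting is not stated. The helicase Ddx21 differed by 0.47 (SE 0.30) between Ly6D+Gfra2+ and Ly6D+Gfra2-. Nolc1, a chaperone of snoRNPs, had the only negative value of the class there, -0.29 (SE 0.43), with 27.5 CPM in Ly6D+Gfra2+ replicate 5 and up to 171.4 CPM in Ly6D+Gfra2- replicate 2.

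Neither of the 2 RNA polymerase I genes passed in any comparison. Polr1a (NM_009088, chr6:71909053-71979435), the largest subunit, was at 216.8, 189.2, 103.6 and 83.0 CPM in Ly6D+Gfra2- replicates 1, 2, 5 and 6, and at 89.7, 78.3 and 197.0 CPM in Ly6D+Gfra2+ replicates 4, 5 and 6. Ly6D-Gfra2- libraries lay between 90.6 and 166.0 CPM with a median of 132.1 CPM, inside the range of the other groups. The fitted differences were 0.11 (SE 0.31), 0.03 (SE 0.41) and 0.14 (SE 0.36) in the 3 comparisons as ordered above, and they changed sign in 3, 6 and 5 alternative settings. Polr1b, its partner in the active site, had a mean of 51.4 ± 30.7 CPM (n = 4) in Ly6D+Gfra2- against 28.8 ± 10.8 CPM (n = 6) in Ly6D-Gfra2- and 24.2 ± 16.7 CPM (n = 3) in Ly6D+Gfra2+. Ly6D+Gfra2+ was lower than Ly6D+Gfra2- by a log2 value of -1.14 (SE 0.70; adjusted p = 0.511).

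Proteins of the box C/D snoRNPs, which guide 2'-O-methylation, showed no difference past the threshold. Nop58 (NM_018868, chr1:59684961-59711510), a core scaffold protein, was at 317.9, 360.6, 136.1 and 182.0 CPM in Ly6D+Gfra2- replicates 1, 2, 5 and 6 and at 243.2, 155.3 and 283.2 CPM in Ly6D+Gfra2+ replicates 4, 5 and 6. Ly6D-Gfra2- ran from 187.5 to 356.4 CPM with a median of 242.7 CPM. In both groups that hold both prefixes the P libraries were the higher ones, and the groups overlapped. Ly6D+Gfra2+ minus Ly6D+Gfra2- was 0.38 (SE 0.27) with the prefix term and -0.13 without it. Nop56, the paired scaffold protein, ran from 65.2 to 184.6 CPM over all libraries, with fold changes of -0.29, 0.34 and 0.05.

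Fbl (NM_007991, chr7:28168893-28179269), the methyltransferase of these particles, stood at a low level with wide spread. It had 34.4, 2.38, 7.37 and 21.4 CPM in Ly6D+Gfra2- replicates 1, 2, 5 and 6, and 1.94, 4.42 and 11.3 CPM in Ly6D+Gfra2+ replicates 4, 5 and 6. The 6 Ly6D-Gfra2- libraries lay between 2 and 7.02 CPM with a median of 5.05 CPM, and the groups overlapped. Its fold change of 1.77 (SE 0.84; adjusted p = 0.999) for Ly6D+Gfra2- against Ly6D-Gfra2- had an unadjusted p of 0.0499 and fell to 0.66 without Ly6D+Gfra2- replicate 1. Rrp9, specific to the U3 particle, was as low, from 0.195 CPM in Ly6D+Gfra2- replicate 1 to 20.7 CPM in Ly6D-Gfra2- replicate 3.

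Box H/ACA particles, which guide pseudouridylation, include Dkc1 (NM_001030307, chrX:75095854-75109776), the pseudouridine synthase dyskerin, which is also part of telomerase. Dkc1 was nearly constant in Ly6D+Gfra2-, at 226.7, 229.6, 236.9 and 219.3 CPM in replicates 1, 2, 5 and 6. It stood at 303.5, 352.3 and 282.9 CPM in Ly6D+Gfra2+ replicates 4, 5 and 6 and between 231.4 and 379.8 CPM, median 276.0 CPM, in Ly6D-Gfra2-. Ly6D+Gfra2+ thus lay wholly above Ly6D+Gfra2-, and Ly6D-Gfra2- overlapped with both. Mpp1, which shares 44 bases with Dkc1, was at 131 and 128 CPM in Ly6D+Gfra2+ replicates 4 and 6 and highest, at 300.05 CPM, in replicate 5. The difference was 0.41 (SE 0.23; adjusted p = 0.461) between the first pair and -0.37 (SE 0.18; adjusted p = 0.999) for Ly6D+Gfra2- against Ly6D-Gfra2-.

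Gar1, a partner of Dkc1 in the same particle, ran against it. Its level was 35.2, 58.3 and 64.4 CPM in Ly6D+Gfra2+ replicates 4, 5 and 6, against 110 ± 32.9 CPM (n = 4) in Ly6D+Gfra2- and 74.3 to 146.7 CPM (n = 6) in Ly6D-Gfra2-. All 3 Ly6D+Gfra2+ libraries were below the lowest Ly6D-Gfra2- library (74.3 CPM), and 1 of them was above the lowest Ly6D+Gfra2- library (61.8 CPM). The differences were -0.999 (SE 0.39; adjusted p = 0.286) and -1.03 (SE 0.36; adjusted p = 0.189), negative in 24 of 24 settings in both comparisons. Nhp2, another protein of the particle, was at 9.61, 95.8 and 19.5 CPM in Ly6D+Gfra2+ replicates 4, 5 and 6, which spans all other libraries.

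Besides Wdr43, the small subunit factors had positive values for Ly6D+Gfra2+ against Ly6D+Gfra2- in 3 of 4 cases. Heatr1, which works in the same early complex as Wdr43, differed by 0.60 (SE 0.29; adjusted p = 0.38), Nop14 by 0.80 (SE 0.47) and Rrp12, a factor of small subunit export, by 1.34 (SE 0.99). Nop14 rested on 264.4 CPM in replicate 5, with 52.3 and 120.1 CPM in the other Ly6D+Gfra2+ libraries. Rrp12 stood at 86.6 CPM in replicate 6, with 8.70 and 6.34 CPM in replicates 4 and 5. Utp20 ran from 87.5 to 145.7 CPM over all 13 libraries, with fold changes of 0.04, -0.15 and -0.11.

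None of the 8 large subunit factors passed in edgeR, and Noc2l and Ppan had the highest fitted values of the class for Ly6D+Gfra2+. Noc2l (NM_021303, chr4:156234655-156247616), related to a yeast factor of early large subunit particles and known as an inhibitor of histone acetylation, was at 192.0, 145.6, 167.0 and 111.7 CPM in Ly6D+Gfra2- replicates 1, 2, 5 and 6. Ly6D+Gfra2+ replicates 4, 5 and 6 had 196.2, 945.8 and 211.2 CPM, and Ly6D-Gfra2- ran from 105.2 to 202.5 CPM with a median of 163.4 CPM. A single library, Ly6D+Gfra2+ replicate 5, set the size of the difference, though the other 2 also lay above all of Ly6D+Gfra2-. The log2 fold change was 1.73 (SE 0.46; adjusted p = 0.113) against Ly6D+Gfra2- and 1.71 (SE 0.43; adjusted p = 0.0567) against Ly6D-Gfra2-, and 0.58 (adjusted p = 0.404) and 0.56 (adjusted p = 0.368) without replicate 5. In that library Samd11, whose gene overlaps Noc2l, was at 213 CPM, against 7.59 to 105 CPM in the others. The genes share 651 bases, and reads there cannot be assigned to one of them. Klhl17, which shares 203 bases with Noc2l, was at 44.8 CPM in that library and 19.9 to 70.8 CPM over all.

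Ppan (NM_145610, chr9:20888175-20892179), a factor of large subunit RNA processing, had 81.9, 290.5 and 64.2 CPM in Ly6D+Gfra2+ replicates 4, 5 and 6. It had 169.7, 47.1, 17.4 and 52.0 CPM in Ly6D+Gfra2- replicates 1, 2, 5 and 6, and from 35.4 to 69.8 CPM, median 40.1 CPM, in Ly6D-Gfra2-. Replicate 5 was again the highest of all, and both comparisons overlapped. The differences were 1.56 (SE 0.69; adjusted p = 0.344) and 1.98 (SE 0.58; adjusted p = 0.11), or 0.56 and 0.99 without Ly6D+Gfra2+ replicate 5. That library, the one with the fewest genes detected, held the highest value of 8 of the 32 genes.

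Pes1, Bop1 and Wdr12, which form the PeBoW complex of large subunit maturation, gave 0.13 (SE 0.63), -0.02 (SE 0.66) and 0.06 (SE 0.49) for Ly6D+Gfra2+ against Ly6D+Gfra2-. Their levels were 10.6 to 50.3 CPM, 9.99 to 51.8 CPM and 28.7 to 87.1 CPM over all libraries. No member of the complex therefore differed by more than its standard error. Nop2, a methyltransferase of ribosomal RNA, differed by 0.77 (SE 0.58), Nop16 by 0.47 (SE 0.74) and Rrs1, which helps to load the 5S particle, by -0.40 (SE 0.62). Nop16 spanned 6.06 to 93.9 CPM within the 3 Ly6D+Gfra2+ libraries alone.

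The growth-linked enzymes also differed in sign. Odc1, which starts polyamine synthesis, was at 38.9 ± 8.04 CPM (n = 3) in Ly6D+Gfra2+, 48.5 ± 17.1 CPM (n = 4) in Ly6D+Gfra2- and 58.8 ± 22.4 CPM (n = 6) in Ly6D-Gfra2-. Its difference for Ly6D+Gfra2+ against Ly6D-Gfra2- was -0.95 (SE 0.40; adjusted p = 0.268). Srm, the spermidine synthase of the next step, was level, at 70.1 ± 29.7 CPM, 70.4 ± 16.5 CPM and 74.4 ± 35.7 CPM in the same order of groups. Cad, which carries the first steps of pyrimidine synthesis, differed by 0.96 (SE 0.53; adjusted p = 0.451) between Ly6D+Gfra2+ and Ly6D+Gfra2-, with 43.8 to 158.7 CPM in the former and 29.4 to 158.3 CPM in the latter.

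The 32 genes differed widely in how far libraries of 1 group and prefix spread. The median SD of log2(CPM + 0.5) within group and prefix was 0.489, against 0.862 over all genes tested, which were not matched to the 32 for level. Npm1 (0.158), Ncl (0.191) and Dkc1 (0.219) were the most even, and Rrp12 (1.39), Fbl (1.18), Nop16 (1.11) and Rrp9 (1.09) the least. The spread was larger at lower levels (Spearman's rho -0.75 with the mean CPM over the 32 genes) and at higher GC content of the transcript (rho 0.70). Split by GC content, the lower 16 genes had a median SD of 0.329 and the upper 16 had 0.686. Both groups of 16 had positive medians for Ly6D+Gfra2+ against Ly6D+Gfra2-, at 0.42 and 0.48. These correlations are across genes that share libraries, and level and GC content were not separated.

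**Figure D4:**
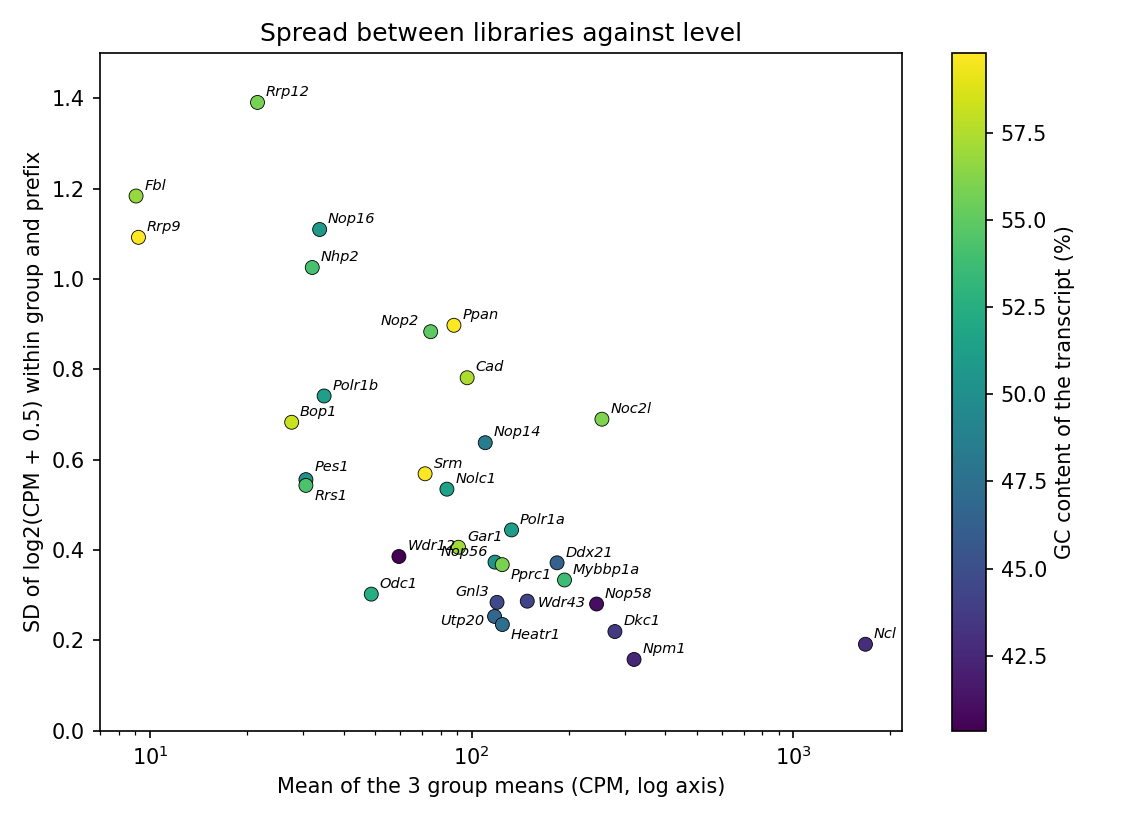
SD of log2(CPM + 0.5) within group and prefix (vertical axis) against the mean of the 3 group means in CPM (horizontal log axis) for each of the 32 genes, coloured by GC content of the transcript in percent. Ncl and Npm1 lie low at right, at 0.191 and 0.158, and Rrp12 lies highest, at 1.39.

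Per kilobase of the GENCODE transcript linked to each identifier, Ncl (204 CPM per kb) and Npm1 (196 CPM per kb) were the most abundant of the 32, followed by Dkc1 (99.4 CPM per kb). Rrp12 (4.97 CPM per kb), Rrp9 (5.80 CPM per kb) and Wdr12 (5.93 CPM per kb) were the scarcest. The transcripts in use may be shorter than the annotated ones, such as the 8202 bases of Ncl, and such genes would then be understated. A feature of position that the choice of genes did not use is the small nucleolar RNA genes in introns. Dkc1, Gnl3, Ncl, Nop56, Nop58, Odc1, Ppan and Wdr43 hold at least 1, which is 8 of 32 (25%), against 2.85% of 12680 genes tested and placed. Leaving small nucleolar RNA genes aside, 13 of the 32 genes overlap another annotated gene.

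Other genes of the pathway were read from lists of 126 further ribosome biogenesis genes, all measured. None passed in any comparison. Their median log2 fold changes were -0.12 (52 positive), 0.22 (85 positive) and 0.18 (79 positive) in the 3 comparisons as ordered above. At an unadjusted p under 0.05 they numbered 2 higher and 5 lower, 16 higher and 5 lower, and 6 higher and 4 lower, against 4.71%, 13.2% and 15.4% of all genes. For Ly6D+Gfra2+ against Ly6D+Gfra2- the smallest p-values among them were those of Mrto4 (2.47, SE 0.68; adjusted p = 0.126), a factor of the large subunit stalk, the small subunit factor Esf1 (1.12, SE 0.33; adjusted p = 0.157), and the large subunit factor Urb1 (2.83, SE 0.85; adjusted p = 0.169). Bms1, a GTPase of small subunit assembly, led them for Ly6D+Gfra2+ against Ly6D-Gfra2- (0.83, SE 0.24; adjusted p = 0.108), and Utp6 for Ly6D+Gfra2- against Ly6D-Gfra2- (-0.87, SE 0.28; adjusted p = 0.807). The 79 cytosolic ribosomal protein genes had medians of 0.05, 0.34 and 0.43, with none passing.

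**Figure D5:**
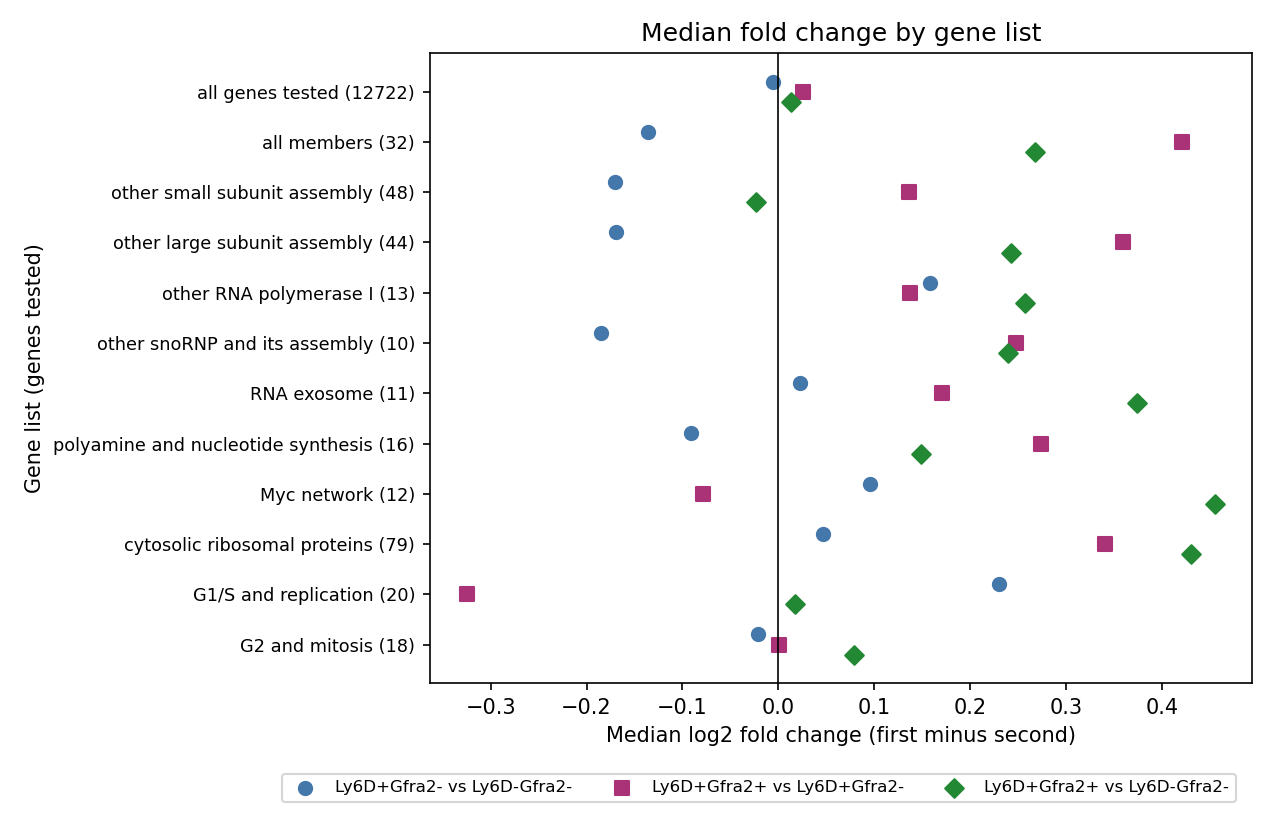
Median fitted log2 fold change (horizontal axis) of each gene list (rows, with the number of genes tested) in the 3 comparisons, shown by circles, squares and diamonds. The squares (Ly6D+Gfra2+ against Ly6D+Gfra2-) lie at 0.42 for the 32 genes, 0.34 for cytosolic ribosomal proteins, -0.32 for G1/S and replication genes and 0.001 for G2 and mitosis genes.

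Of 12 Myc network genes, 1 passed in any comparison. Mlxip, a sugar-responsive factor of the network, rose by 0.99 in Ly6D+Gfra2+ relative to Ly6D-Gfra2- (log2, SE 0.21; edgeR adjusted p = 0.0305). Myc was at 685, 988 and 1466 CPM in Ly6D+Gfra2+ replicates 4, 5 and 6, and at 747, 971, 530 and 618 CPM in Ly6D+Gfra2- replicates 1, 2, 5 and 6. The Myc values of the groups overlapped, with a difference of 0.78 (SE 0.27; adjusted p = 0.217). Mycn, its relative in early progenitors, was at 6.06, 0 and 3.79 CPM in Ly6D+Gfra2+ and between 22.2 and 113 CPM in the other 10 libraries. The fitted Mycn difference was -3.30 (SE 0.94; adjusted p = 0.145) against Ly6D+Gfra2- and -3.80 (SE 0.93; adjusted p = 0.0537) against Ly6D-Gfra2-, with no overlap of the groups. Max, the shared partner, was at 578, 1038 and 585 CPM in Ly6D+Gfra2+ replicates 4, 5 and 6, at 207 to 724 CPM in Ly6D+Gfra2- and at 348 to 536 CPM in Ly6D-Gfra2-, and did not pass in any comparison. Genes of the cell cycle gave no single direction: the medians of 20 G1/S and replication genes were 0.23, -0.32 and 0.02, and those of 18 G2 and mitosis genes -0.02, 0.00 and 0.08, in the same order of comparisons, with none passing. The 32 genes, with medians of -0.14, 0.42 and 0.27, had the opposite sign to the G1/S list in the first 2 comparisons, which share the Ly6D+Gfra2- libraries. In the third comparison both had the same sign. The G2 and mitosis medians were small (0.001 in the second comparison) and had the sign of the 32 genes in every comparison. A part of cell division in these differences was not tested.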

How the data were processed

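RNA was measured in 13 libraries of cells sorted from bone marrow; total RNA was amplified with NuGEN Ovation kits, per the labels' protocols. The authors deposited raw read counts per RefSeq identifier, 1 file for each library. The submitters' processing notes name FastQC, HISAT, TopHat, HOMER, DESeq and the build mm10; which tool made the counts, its version and its strand setting are not given in the sources used here. Identifiers were named from RefSeq GRCm38.p6 (23815 of 24072) and GENCODE M21 (144), and 113 had no name.

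edgeR's filterByExpr (at least 10 counts, scaled to library size, in enough libraries and 15 in all) left 12722 genes. Counts were scaled by TMM and tested with edgeR 4.0.16 (quasi-likelihood test, R 4.3.3) over all 13 libraries, with terms for group and name prefix, and p-values were adjusted by Benjamini and Hochberg over all genes, with a threshold of 0.05. Standard errors (SE) of edgeR fold changes are approximate. Each is the size of the log2 fold change divided by the square root of the F statistic of its test. CPM levels use the TMM-scaled library size, with a pseudocount of 0.5 where logs were taken. Values in each library are given for members past the threshold, the 4 members with the smallest unadjusted p in each comparison and the member with the highest mean CPM in each role class, and for some others by range. The members and lists were chosen with earlier results of these data known. Alternatives were DESeq2 1.42.0, limma 3.58.1 (voom with quality weights), other scalings and filters, no prefix term, a replicate block, 1 prefix only, the 2 groups compared only, and leaving out libraries. Leaving out 2 libraries together was chosen after seeing the data. Intervals of depth, as the CPM of 3 counts, cover counting error only. Summaries used Python 3.11.15 and pandas 2.3.3.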

Additional observations from a re-analysis of the deposited data

Results flagged for a closer look

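Rrp12 in Ly6D-Gfra2- replicate 1 stood apart from the other libraries of its group, at 27.7 CPM against 12.5 to 17.4 CPM in the other 5. It was found among 64 groups of values tested for a single distant library, and chance marks about 1 in 20 such groups. The Ly6D+Gfra2+ values, with 3 libraries for each gene, were too few for this test, and single high libraries there are given above.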

How the results depend on the processing

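Of 657 values of the 9 genes given by library, 593 kept direction and side of the threshold, 36 changed sign, 13 lost a call and 15 gained one; no value that changed sign was called, and the causes were not tested. For Ly6D+Gfra2+ against Ly6D+Gfra2-, the count of the 32 genes past the threshold (1) was 0 with library size alone, the replicate block, only the 2 groups compared, only prefix T or 2 libraries left out together, 2 with no filter, 5 with DESeq2, and 0 to 3 with 1 library left out; the median was 0.24 with library size alone. For Ly6D+Gfra2+ against Ly6D-Gfra2-, the count (0) was 2 with no filter, 2 with DESeq2, 1 without the prefix term and 0 to 2 with 1 library left out. With library size alone the median there was 0.00639, with 16 positive values. Counts over all genes moved more: 52 for Ly6D+Gfra2+ against Ly6D+Gfra2- became 545 with DESeq2 and 25 with the replicate block, 177 against Ly6D-Gfra2- became 789 and 92, and 0 for Ly6D+Gfra2- against Ly6D-Gfra2- became 20 and 8.

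For Ly6D+Gfra2- against Ly6D-Gfra2-, signs changed for Ppan (-0.0707 with limma voom, -0.34 in prefix T), Noc2l (0.04 in prefix T), Polr1a (-0.43 in prefix T) and Nop58 (0.11 in prefix P). With 1 library left out they ran from -0.25 to 0.80 for Ppan, -0.15 to 0.0717 for Noc2l, -0.0398 to 0.30 for Polr1a and -0.19 to 0.018 for Nop58. For Ly6D+Gfra2+ against Ly6D+Gfra2-, Polr1a was -0.11 with library size alone and -0.28 without the prefix term, and -0.50 to 0.27 with 1 library left out, and Nop58 was -0.13 without the prefix term. For Ly6D+Gfra2+ against Ly6D-Gfra2-, library size alone gave -0.0947 for Wdr43, -0.0708 for Fbl, -0.226 for Dkc1 and -0.08996 for Polr1a. Fbl was -0.37 with limma voom, Polr1a -0.0864 and Nop58 -0.18 without the prefix term, Polr1a -0.0493 with only the 2 groups compared and -0.0535 in prefix T, and Dkc1 -0.0753 with 2 libraries left out. With 1 library left out, Fbl ran from -0.70 to 0.59, Dkc1 from -0.0515 to 0.18 and Polr1a from -0.39 to 0.38.

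Libraries of different groups with the same replicate number did not deviate together (r -0.033 to 0.039 over 12722 genes in 9 pairs). This cannot show whether they were paired, because the deviations were taken within sets of few libraries from the same group and prefix. The titles of prefix T libraries also share a tag by replicate number, and its meaning is not stated. With the replicate block the medians of the 32 genes were -0.24, 0.46 and 0.16 in the 3 comparisons, Pprc1 had 1.85 (adjusted p = 0.106) for Ly6D+Gfra2+ against Ly6D+Gfra2-, and Fbl -0.15 for Ly6D+Gfra2+ against Ly6D-Gfra2-. At the depths here, 3 counts are 0.133 to 0.389 CPM, and Rrp9 had 3 counts (0.195 CPM) in Ly6D+Gfra2- replicate 1.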
